A study of Homo sapiens with 9 samples.

Results

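Core sites without MYC are places in the genome where eGFP-tagged ZNF395 was found by chromatin immunoprecipitation and sequencing (ChIP-seq) in both 786-O and A498 cells, and where no MYC peak was called in 786-O. They were chosen as the peaks of the tagged 786-O list that shared at least 1 bp with a tagged A498 peak and that overlapped neither a MYC peak nor a GFP peak of untagged parental cells of either line. Of the 20034 tagged 786-O peaks, 350 (1.75%) met the whole rule. They were selected on which peaks had been called in the 5 lists, so their scores, widths and overlaps are given as a description and support nothing. The 4097 tagged 786-O peaks with a tagged A498 peak (20.5% of the list) were the starting point. Of these, 1223 were removed for a parental 786-O peak and another 52 for a parental A498 peak alone. Over the whole list 39.4% of tagged 786-O peaks had no MYC peak and 87.0% had no parental peak of either line. The 2822 remaining core sites comprised 350 without a MYC peak (12.4%) and 2472 with one. Among the parental-free peaks found only in 786-O, 46.4% had no MYC peak.

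786-O and A498 are established human cell lines from clear cell renal cell carcinoma. The tested cells of both lines carried an eGFP knock-in at ZNF395, made by electroporation of a guide plasmid and a donor plasmid, and were precipitated with a GFP antibody. The labels do not say whether the tagged cells were 1 clone or a mixed population. Untagged parental 786-O and parental A498 cells, precipitated with the same GFP antibody, give the background of that antibody, and a MYC antibody was used on parental 786-O cells. The tagged peak lists held 20034 peaks in 786-O and 7718 in A498, the MYC list 20199, and the parental GFP lists 3361 in 786-O and 1563 in A498. With 1 library behind each list, the differences below have no replicate check, and no test across replicates or p-value is given. Some labels conflict: the cell line given for the A498 samples is 786-O, and the target given for the MYC sample is P300, a coactivator, although its antibody is against MYC. The names used here follow the sample titles.

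ZNF395 is a zinc finger protein that binds DNA and has been described as a regulator of transcription, also under the names papillomavirus binding factor and Huntington disease gene regulatory region-binding protein. MYC is a transcription factor of cell growth that binds DNA together with its partner MAX, largely at active promoters and enhancers. In clear cell renal cell carcinoma, loss of the VHL tumour suppressor stabilises hypoxia-inducible factors and changes which promoters and enhancers are active. MYC was measured in 786-O cells alone, so nothing is known here of MYC at the same sites in A498. Sites are named by their hg19 position, since genes, promoters and sequence at the sites were not analysed here.

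The strongest tagged peak of both lines was a core site without MYC. It lay at chr11:8008444-8009350, where the authors' score was 313 in tagged 786-O and 223 in tagged A498, the highest value of each list. The score is the authors' value for each peak, taken here as the −log10 of a p or q, and its size can be compared only within 1 list. The MYC peak nearest to this site lay 80812 bp away and was weak, with rank 18886 of 20199 by MYC score. No other tagged 786-O peak lay within 270907 bp, so the leading site stood alone.

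The site of second-best rank sum, chr5:25544631-25545427, had a score of 299.6 (rank 2) in tagged 786-O and 138.8 (rank 12) in tagged A498. It was also the member farthest from MYC, with 4865212 bp to the nearest MYC peak. The third, chr9:110103253-110103968, scored 233 (rank 17) in tagged 786-O and 129 (rank 15) in tagged A498. The fourth, chr2:39455162-39455812, scored 260.4 (rank 4) in tagged 786-O and 76.0 (rank 37) in tagged A498. These 4 were the members of best rank sum, and the A498 peaks shared 781, 691, 568 and 319 bp with them. All 4 lay more than 50000 bp from any MYC peak.

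Below them the order of the lines parted. The member at chr21:45717360-45717870 ranked 53 in tagged 786-O and 168 in tagged A498, and that at chr16:28288991-28289558 ranked 84 and 158. The member at chr4:66535932-66536574 had rank 166 of 7718 in tagged A498 and rank 258 of 20034 in tagged 786-O. The A498 list is the shorter, so these ranks do not place the site higher in A498. The member at chr11:13298756-13299980 ranked 36 in tagged 786-O and 600 in tagged A498, and the member at chr4:171774440-171774999 ranked 38 and 806. The other 6 of the 15 members of best rank sum lay on chromosomes 8, 1, X, 3, 2 and 20, with ranks of 73 to 386 in tagged 786-O and 69 to 411 in tagged A498.

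At the other end, the member of lowest rank sum was chr14:99887162-99887439, with a score of 2.08 (rank 19981 of 20034) in tagged 786-O and 2.35 (rank 7601 of 7718) in tagged A498. The next was chr17:27944980-27945198, with scores of 2.91 in tagged 786-O and 2.99 in tagged A498. These were called just above the lowest score in either list, 2.01, although the peaks of both lines overlapped by 278 and 79 bp.

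Over all 350 members the tagged 786-O score had a median of 24.6, with 25% of members below 12.2 and 25% above 49.4. The tagged A498 score had a median of 7.17, with quartiles of 5.05 and 10.4. Of the members, 93 (26.6%, 95% interval 22.02 to 31.5) stood in the upper 10% of the tagged 786-O list. In the upper 10% of the tagged A498 list stood 53 (15.1%, 11.6 to 19.3), and 34 (9.71%, 6.82 to 13.3) stood in both. Another 48 (13.7%, 10.3 to 17.8) stood in the lower 50% of both lists. Among core sites with MYC these shares were, in that order, 35.3% (33.4 to 37.2), 12.5% (11.3 to 13.9), 10.8% (9.57 to 12.0) and 4.94% (4.12 to 5.86). The members thus ran from the strongest tagged peak to peaks near the calling threshold. Scores of the 2 lines were correlated across the 350 members (Spearman's rho 0.45) and across the 2472 core sites with MYC (rho 0.51). These are correlations across peaks, which share libraries and are not replicates.

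**Figure D1:**
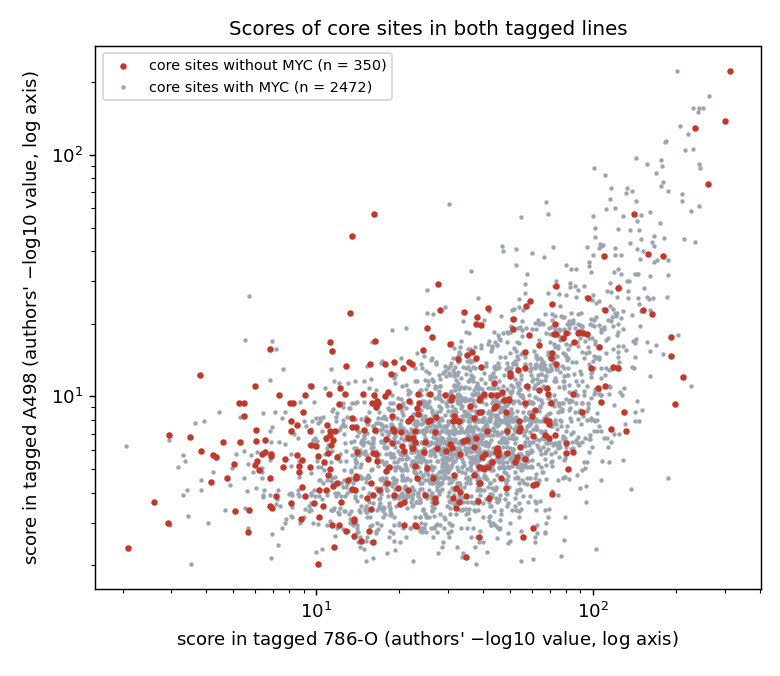
Score in tagged 786-O (x axis) against score in tagged A498 (y axis), on log axes. The scores are the authors' values, taken here as −log10 values. Shown are 350 core sites without MYC (large points) and 2472 with MYC (small points). The leading site without MYC lies at the upper right, at 313 and 223, and members spread down to about the lowest scores of both lists.

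A few members were strong in 1 line and weak in the other. In all, 10 members stood in the upper 10% in tagged 786-O and the lower 50% in tagged A498. Another 3 stood in the upper 10% in tagged A498 and the lower 50% in tagged 786-O. The matching counts for core sites with MYC are not given here. The upper 10% of the tagged 786-O list alone held 59 members (16.9%, 13.1 to 21.2) and 24.5% (22.8 to 26.3) of core sites with MYC. The upper 10% of the tagged A498 list alone held 19 members (5.43%, 3.30 to 8.35) and 1.78% (1.30 to 2.38) of core sites with MYC. The sites named here were chosen after their values were seen. Of the 10, the member at chr1:208136738-208137426 had rank 578 of 20034 in tagged 786-O (score 81.4) and rank 4619 of 7718 in tagged A498 (score 5.00). The member at chr2:85581535-85582177 had rank 832 in tagged 786-O and 5907 in tagged A498. Of the 3, the member at chr19:4058457-4058663 had rank 727 in tagged A498 (score 15.7) and rank 15328 in tagged 786-O (score 6.81). The others were chr11:2906142-2906399, with ranks 655 in tagged A498 and 11226 in tagged 786-O, and chr4:56915144-56915478, with ranks 746 and 11136 in that order. Further members differed in rank while staying in the upper 50% of both lists. The member at chr9:69710899-69711141 had rank 68 in tagged A498 (score 56.8) and rank 8410 in tagged 786-O (score 16.2), with midpoints 5 bp apart. The member at chr2:119768953-119769649 had rank 35 in tagged 786-O (score 198.5) and rank 1747 in tagged A498 (score 9.27).

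Core sites without MYC had lower scores in tagged 786-O than core sites with MYC, while in tagged A498 the medians lay close together. Their median tagged 786-O score was 24.6 (95% interval 21.6 to 30.5), against 36.3 (35.2 to 37.4) for core sites with MYC. Their median tagged A498 score was 7.17 (6.62 to 7.90), against 6.96 (6.73 to 7.17) for those with MYC, and these intervals overlap. The rule used the same lists, so this is a description and not a test, and the intervals cover counting error over peaks only.

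By tagged 786-O score, the share without MYC was highest among the core sites of lowest score. Of the lowest 10% of core sites by tagged 786-O score, 91 of 283 had no MYC peak (32.2%, 26.7 to 37.9), and of the next 10%, 47 of 282 (16.7%, 12.5 to 21.5). From the fourth to the highest 10% the share lay between 7.09% and 10.3% with no steady rise or fall, and it was 10.2% (6.97 to 14.4) at the top. Ordered by tagged A498 score instead, the lowest 10% of core sites lacked MYC in 11.7% (8.16 to 16.0) of cases and the highest 10% in 14.8% (10.9 to 19.5), and the 10 intervals overlapped one another. Among the 10 core sites of best rank sum 3 had no MYC peak, among the best 100 there were 10, and among the best 1000 there were 104 (10.4%, 8.58 to 12.5).

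**Figure D2:**
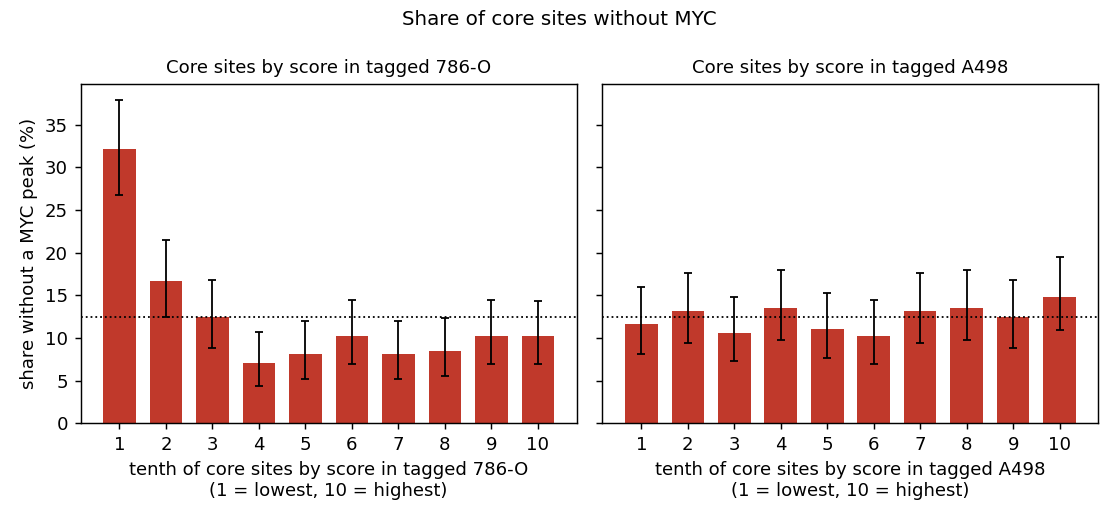
Share of core sites without a MYC peak (bars, in percent, with exact 95% intervals) in 10 equal groups by score in tagged 786-O (left) and in tagged A498 (right), and over all core sites (dotted line, 12.4%). The share is 32.2% in the lowest group by 786-O score and near 7 to 10% from the fourth group up, and shows no such slope by A498 score.

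Members were narrower than core sites with MYC but wider than tagged 786-O peaks in general. In tagged 786-O their median width was 453 bp (420 to 491), against 847 bp (827 to 864) for core sites with MYC. The median was 393 bp over all tagged 786-O peaks, 237 bp (235 to 240) for 786-O-only sites without MYC and 422 bp (377 to 477) for the strong ones among these, in the upper 10% of the list. Set against core sites with MYC, the members' median was narrower in each of the 10 groups by 786-O score, with 283 bp against 457.5 bp in the lowest group and 644 bp against 970.5 bp in the highest. The share without MYC was lower among wider peaks. It was 37.5% (33.5 to 41.7) in the narrowest 20% of core sites, of 157 to 526 bp, and 2.48% (1.36 to 4.12) in the widest 20%, of 1180 bp and more. A narrow peak offers fewer bases that a MYC peak can overlap, so the rule itself bears on width. In A498 the partner peaks had a median width of 250 bp (237 to 258), against 296 bp (287 to 304) for the partners of core sites with MYC.

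**Figure D3:**
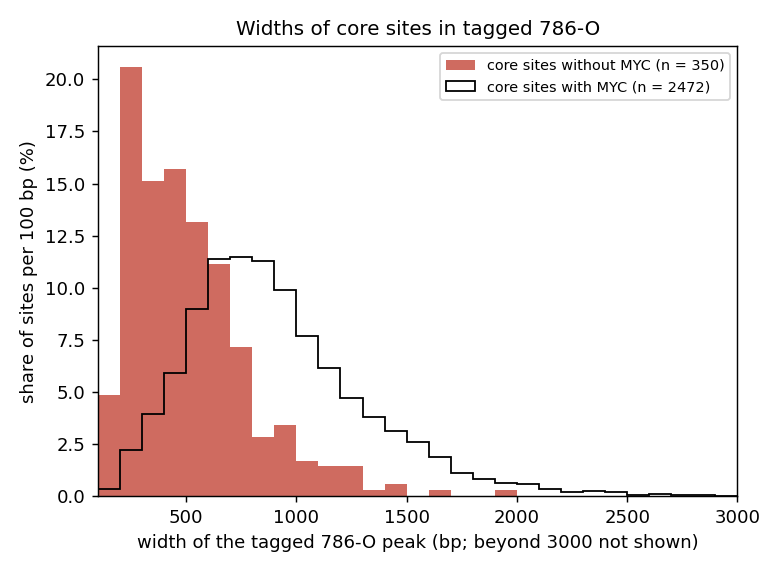
Width of the tagged 786-O peak (x axis, bp) against the share of sites per 100 bp (y axis, percent) for core sites without MYC (filled) and with MYC (outline). Sites without MYC gather at small widths, with a median of 453 bp, and those with MYC have a median of 847 bp.

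The widest member was chr7:191864-193802, with 1939 bp, a tagged 786-O score of 15.3 and 2 separate tagged A498 peaks. It was followed by chr1:232765002-232766647 (1646 bp), chr2:90449522-90450997 (1476 bp), chr1:43823637-43825103 (1467 bp) and chr5:153569467-153570803 (1337 bp). The one on chromosome 1 at 43823637 was also among the 15 of best rank sum. Only 1 other member had 2 tagged A498 peaks, while 348 had exactly 1.

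The tagged A498 peak lay inside the tagged 786-O peak at 232 of the 350 members, and it was the wider of the pair at 49. Midpoints of both lines lay a median of 53.8 bp apart (47.0 to 61.5) at core sites without MYC, against 102 bp (96.0 to 107.5) at core sites with MYC. The offsets were also compared within broad classes of 786-O width, inside which widths can still differ, and without intervals. The medians without and with MYC were 29.3 and 50.0 bp for peaks under 400 bp and 63.0 and 69.0 bp for peaks of 400 to 800 bp. For wider peaks they were 115.5 and 155.5 bp. Overlap of the peaks limits the distance between midpoints, and both sets had larger offsets at wider peaks. Of the 352 tagged A498 peaks that overlapped a member, 6 themselves touched a MYC peak, 3 a parental 786-O peak and 1 a parental A498 peak, since the rule was applied to the 786-O peak alone. Without the members so affected 342 were left.

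The number of core sites without MYC depended on which MYC peaks were counted. Of all core sites, 717 (25.4%, 23.8 to 27.1) had only MYC peaks from the lower 50% of the MYC list by score. When these were counted as lacking MYC, the number of core sites without MYC was 1067. Such a change can only raise the number. It does not show whether MYC lay below the calling threshold at members. The 717 sites had a median tagged 786-O score of 31.9 (30.0 to 34.2), and the interval of their median width was 751 to 822 bp. Both stood between those of members (24.6 and 453 bp) and those of the 1755 core sites with a stronger MYC peak (37.9 and 873 bp). In A498 the median scores were 7.17 without a MYC peak, 6.67 with a weaker one and 7.11 with a stronger one.

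Just inside the rule, the member at chr13:99739429-99739895 bordered a MYC peak directly, with 0 bp between them and none shared, and had a tagged 786-O score of 11.5. The members at chr20:55925862-55926070, chr19:48248642-48248933, chr12:51441333-51441856 and chr15:51200582-51201394 lay 11, 30, 42 and 52 bp from a MYC peak. The last of these was strong, with rank 274 in tagged 786-O. Just outside the rule, the core sites at chr12:50016939-50017515 and chr17:45331106-45331662 shared 11 and 17 bp with a MYC peak and had tagged 786-O scores of 35.5 and 19.3. The next, at chr11:65383187-65383790, chr6:30654371-30655000 and chr17:18164036-18164444, shared 44, 47 and 58 bp. The tagged 786-O scores of these sites ran from 4.23 to 107 just inside the rule and from 2.93 to 35.5 just outside it.

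Most members lay well away from MYC peaks. The median distance between the edges of a member and the nearest MYC peak was 28289 bp, over the 348 members on a chromosome or contig with a MYC peak. For the 6769 sites without MYC that were found only in 786-O it was 21923 bp, and for the 97 of these in the upper 10% of the tagged 786-O list it was 27702 bp. Of the members, 48 (13.8%, 10.3 to 17.9) lay within 1000 bp of a MYC peak, against 17.3% (16.4 to 18.2) of the 786-O-only sites without MYC. Within 10000 bp the shares were 35.6% (30.6 to 40.9) and 37.3% (36.1 to 38.4). The intervals overlapped at both distances.

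**Figure D4:**
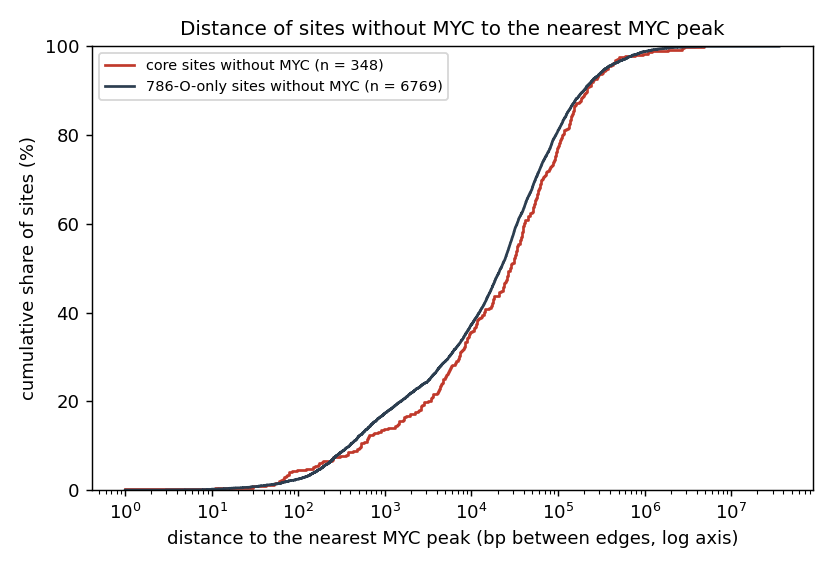
Cumulative share of sites (y axis, percent) by distance to the nearest MYC peak (x axis, bp between edges, log axis) for 348 core sites without MYC and 6769 786-O-only sites without MYC. The curves run close together, with medians of 28289 bp and 21923 bp.

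The median tagged 786-O score was lowest for members within 1000 bp of a MYC peak, though strong members lay there too. These medians have no intervals. The 48 members within 1000 bp had a median tagged 786-O score of 11.5, the 76 at 1000 to 10000 bp had 20.1, the 146 at 10000 to 100000 bp had 33.0 and the 80 beyond 100000 bp or with no MYC peak on their contig had 24.5. The upper 10% of the tagged 786-O list held 8, 17, 48 and 20 of them in that order. Tagged A498 medians were 5.88 within 1000 bp and 7.24, 7.31 and 7.34 in the other classes.

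Of the 348 members, 10 had no MYC peak within 500000 bp. Among them were chr5:25544631-25545427, chr4:66535932-66536574 and chr4:171774440-171774999, all in the 15 of best rank sum, the last with 763049 bp to the nearest MYC peak. The other members farthest from MYC were chrX:27827512-27827759 (2843358 bp; tagged 786-O score 9.14, tagged A498 score 3.88), chr7:61080515-61080714 (2686817 bp) and chr2:90449522-90450997 (1219085 bp). Within 500000 bp on each side of a member's midpoint there was a median of 11 MYC peaks, against 14 around core sites with MYC, whose own MYC peak is counted. The corresponding numbers of tagged 786-O peaks, the site itself included, were 12 and 13, and those of tagged A498 peaks were 5 and 5. Tagged peaks were thus about as dense around members as around core sites with MYC. The rule itself puts a MYC peak in the window of each core site with MYC, so the MYC medians are not like for like.

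How often a 786-O peak without MYC was found again in A498 depended on its strength. Parental-free tagged 786-O peaks were divided into 10 equal groups by score. Of those without MYC, 9 of 1184 (0.760%, 0.348 to 1.44) in the lowest group and 105 of 240 (43.8%, 37.4 to 50.3) in the highest had a tagged A498 peak. With MYC the shares were 2.86% (1.64 to 4.61) and 68.3% (65.9 to 70.7). The share was lower without MYC in each of the 10 groups, and over all groups it was 4.91% (4.42 to 5.44) without MYC and 24.0% (23.2 to 24.8) with MYC.

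**Figure D5:**
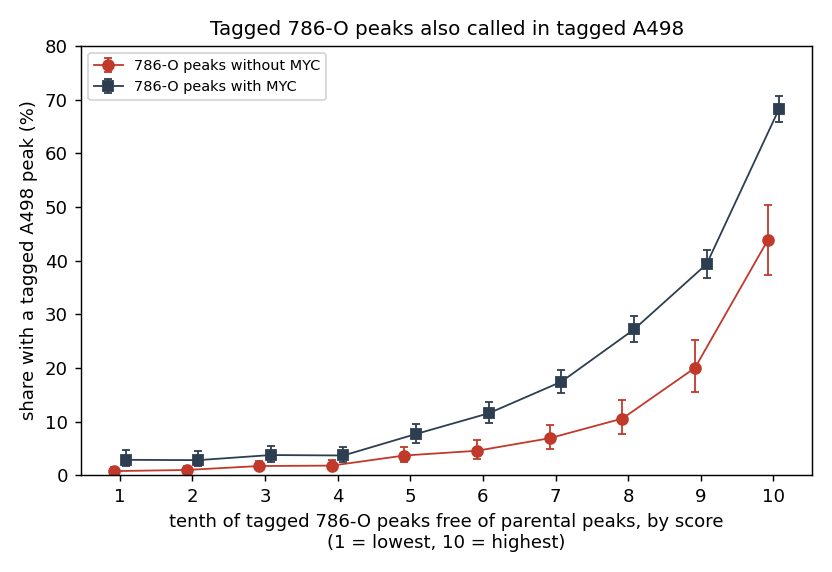
Share of tagged 786-O peaks that also had a tagged A498 peak (y axis, percent, with exact 95% intervals) in 10 equal groups by tagged 786-O score (x axis), for peaks without and with MYC, none at a parental peak. Both curves climb with score, to 43.8% without MYC and 68.3% with MYC in the highest group.

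Width moved with this gap. In the upper 2 of the 10 groups, peaks under 400 bp were found in A498 in 17.6% (12.8 to 23.2) of cases without MYC and 20.3% (14.2 to 27.5) with MYC. For peaks of 400 to 800 bp the shares were 41.4% (34.8 to 48.2) without MYC and 43.8% (41.0 to 46.6) with MYC. Intervals overlapped in both width classes. For peaks of 800 bp and more they did not, with 30 of 73 (41.1%, 29.7 to 53.2) without MYC and 1033 of 1584 (65.2%, 62.8 to 67.6) with MYC. In the seventh and eighth groups the shares at 800 bp and more were 12.8% (4.83 to 25.7) without MYC and 34.1% (30.8 to 37.4) with MYC. The part of width in the gap by MYC was not tested.

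The distance to the next tagged 786-O peak of any kind had a median of 17829 bp for members, 21252.5 bp for core sites with MYC and 19145 bp for 786-O-only sites without MYC. Another tagged 786-O peak lay within 1000 bp of 67 members (19.1%, 15.2 to 23.7), against 18.5% (17.01 to 20.1) of core sites with MYC and 19.9% (19.0 to 20.9) of 786-O-only sites without MYC, so close neighbours were about as common in the 3 sets. In all, 11 of the 349 members with another on their chromosome or contig lay within 10000 bp of it (3.15%, 1.58 to 5.57). Of core sites with MYC, a larger set, 5.38% (4.52 to 6.34) lay that close to another of their kind. A pair on chromosome 17, at 27275967 to 27277159 and 27277764 to 27278583, was separated by 604 bp, with tagged 786-O scores of 32.0 and 40.2. A pair on chromosome 5, at 87971516 and 87976127, had tagged 786-O scores of 67.8 and 14.5.

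Few members lay on any 1 chromosome, so their shares by chromosome had wide intervals. Chromosome 17 held 27 members (7.71%, 5.15 to 11.03), chromosome 7 held 26 (7.43%) and chromosome 5 held 24 (6.86%). In that order they held 7.40%, 7.61% and 5.10% of core sites with MYC and 5.97%, 5.885% and 4.65% of all tagged 786-O peaks. Chromosome 1 held 6.00% (3.75 to 9.03) of members, 9.18% (8.07 to 10.4) of core sites with MYC and 10.3% of all tagged 786-O peaks. It was 1 of 2 chromosomes, of 24 compared, whose interval for members did not reach the share of core sites with MYC. The other was chromosome Y, with 3 members and no core site with MYC, so any member there put the interval above that share. With 24 chromosomes compared, an interval can also miss the share by counting error alone. Chromosome Y held 0.304% of all tagged 786-O peaks, within the members' interval (0.177 to 2.48). The tagged A498 list had 42 peaks on chromosome Y. Whether the reads at the 3 members came from chromosome Y itself was not tested.

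A few members lay in places crowded with GFP background. In all, 15 members (4.29%, 2.42 to 6.97) fell in 1 Mb bins with 10 or more parental peaks in either line, against 2.51% (1.93 to 3.20) of core sites with MYC, 2.79% (2.41 to 3.21) of 786-O-only sites without MYC and 5.06% (4.76 to 5.37) of all tagged 786-O peaks. The members' interval overlaps each of the others. The 3 members on chromosome Y were among them, at 13478973, 13479403 and 13483824, with tagged 786-O scores of 6.08, 11.5 and 8.51 and parental peaks of both lines at most 1049 bp away. So were both members on the contig chr9_gl000199_random, one of which had rank 106 in tagged A498 and rank 9834 in tagged 786-O. Further members in such bins were chr7:61080515-61080714, chr1:121478384-121479063 and chr16:33873961-33874182. Parental A498 peaks lay within 5000 bp of 13 members (3.71%, 1.99 to 6.27) and of 14 core sites with MYC (0.566%, 0.310 to 0.948). Parental 786-O peaks lay within 5000 bp of 6.86% (4.44 to 10.0) of members and 3.68% (2.97 to 4.50) of core sites with MYC. Of the 4 leading members none lay within 100000 bp of a parental peak of either line.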

How the data were processed

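GFP and MYC ChIP-seq of 786-O and A498 cells was analysed from the authors' peak lists. The series holds 9 samples; 5 have a list, and the 4 inputs entered only as the authors' controls. Fixation in 1% formaldehyde lasted 10 min, sonication gave fragments of about 500 bp, and 20 µg of antibody was used per precipitation, per the labels' protocols. The labels give an average depth of 30 to 50 M reads. Peaks are on hg19, and the submitters' processing notes name BWA and MACS2 without roles, settings or versions. The last deposited column holds 1 score per peak by the authors, taken here as a −log10 p-value or q-value because every list starts just above 2; which of them applies is unknown. Per the deposited peak names, each library was called against 1 control, and the MYC and parental 786-O lists share theirs. Read counts per peak are unknown.

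Groups follow the sample titles. Overlap meant at least 1 bp. The A498 partner of a peak was the overlapping tagged A498 peak of highest score. Distances run between edges. Shares have exact Clopper-Pearson 95% intervals and medians have intervals from order statistics; both cover only counting error, with peaks taken as independent. Members, comparison sets and named sites (15 of best and 5 of lowest rank sum, 5 widest, 5 farthest from and 5 nearest to MYC, 5 just outside the rule) were chosen with earlier results of these data known. No hg19 annotation or genome was used, so the planned distances to gene starts, gene lists, base composition, motifs and sequences were not analysed here. Overlaps were tested on 4000 simulated peaks and in 8 comparisons with bedtools 2.31.1, with 0 differences. Software was Python 3.11.15 with scipy 1.17.1, pandas 2.3.3, numpy 2.4.6 and matplotlib 3.10.9. Alternatives changed the overlap, the distance to MYC, the parental subtraction, the score threshold and the widths and contigs kept.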

Additional observations from a re-analysis of the deposited data

How the results depend on the processing

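The number of core sites without MYC (350) stayed between 261 and 405 under 9 of 13 alternatives. It was 763 with midpoints within 200 bp as the overlap, 678 without parental subtraction, 191 in the upper 50% of the tagged lists and 1067 when only the upper 50% of the MYC list counted as MYC. Their share of all core sites (12.4%) was 35.2% with a 50% reciprocal overlap, 32.2% with midpoints, 10.7% and 9.25% when no MYC peak was allowed within 1000 and 5000 bp, 16.5% without parental subtraction, 11.04% in the upper 50% of the tagged lists, 37.8% with the upper 50% of the MYC list and 14.8% without the widest 1% of each list. A stricter overlap also loosens what counts as free of MYC, by construction. Asking for a distance to MYC can only lower the share, since the core sites stay the same. Counting only the upper 50% of the MYC list can only raise it. For the remaining changes the cause was not tested. The median width ranged from 395.5 to 690 bp and the median tagged 786-O score from 24.4 to 40.8 under the 13 alternatives. Removing bins crowded with parental peaks (335 sites left) and sites whose A498 partner touched a MYC or parental peak (342 left) were added after the data were seen. Windows around gene starts and sequence windows were not run, since no hg19 annotation or genome was used. No paired analysis was possible because each group is 1 library and no result comes from a test. With 1 library per group and no read counts, a missing MYC peak says only that none was called.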
